A study of Mus musculus with 18 samples.

Results

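The genes described here encode the 5 NF-κB subunits (Nfkb1, Nfkb2, Rel, Rela and Relb) and 5 of their inhibitors (Nfkbia, Nfkbib, Nfkbie, Nfkbiz and Tnfaip3), 10 of the 55486 genes in the count table. They were taken by gene symbol, each symbol matched 1 row, and all 10 passed the filter on low counts. The family was chosen after Nfkb1 had been seen to head the list of genes whose response to tumour medium differed between the 2 cell types in these same libraries. Nfkb1 was therefore selected on these measurements and is given below as levels and differences with no test, and the difference in response between the cell types is a description for every member. In every other comparison the 9 other members carry a test, although they too were picked as its partners with results known.

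NF-κB is a family of dimeric transcription factors. The p50 and p52 subunits are cut from the precursors p105 and p100, which Nfkb1 and Nfkb2 encode, and pair with RelA, c-Rel or RelB. In resting cells the IκB proteins hold the dimers in the cytoplasm until the IκB kinase complex marks them for degradation. Several inhibitor genes, among them Nfkbia, are themselves textbook NF-κB targets, so the pathway carries its own negative feedback, and in stromal fibroblasts it drives many cytokine and chemokine genes.

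The 18 libraries held RNA from cultured normal fibroblasts (NFs) of the mammary gland of adult female FVB/n mice. Cells without EpCAM, CD49f, CD45 and CD31 at the surface were separated by their surface CD26 into CD26- and CD26+ NFs, from glands of several pooled mice per sort, and grown on collagen I at low passage. Each cell type was then kept for 7 days in control medium (3 libraries) or in conditioned medium (CM) of tumour cells (6 libraries). The tumour CM came from 6 cell lines grown out of WEPtn tumours of mice. Such mice carry a Cre gene under a milk protein promoter (WapCre) that drives the loss of E-cadherin, among other changes, and model invasive lobular carcinoma. No line was used on more than 1 library of a cell type. The lines were 13-MCB-17, 10-SJK-221, 18-MCB-12, 13-MCB-44, 13-MCB-90 and 13-MCB-138, and the same 6 were used on both cell types. The control libraries belong to no line. Nothing in the sources says which libraries came from separate sorts, so p-values measure the spread between these libraries, which may be technical. In tumour CM each library of a cell type had another line's medium, so the spread there also holds any difference among lines. The 4 groups share 1 estimate of the spread per gene, so comparisons in control medium carry it too.

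Library totals ran from 9725723 to 14585349 counts, and every member had at least 129 counts in every library. The summed level of 10 fibroblast markers was high in all groups, at 16530 to 18500 CPM (counts scaled to library size, here with TMM factors) in CD26- control medium, 9816 to 21490 in CD26- tumour CM, 62530 to 79510 in CD26+ control medium and 29200 to 52140 in CD26+ tumour CM. Markers of immune cells were low apart from Csf1r, with at most 4 counts in any library for Ptprc, Adgre1, Itgam, Cd3e, Cd79a, Tyrobp and Fcer1g. Cd68 and Lyz2 had up to 48 counts. The summed level of 7 endothelial markers was highest in CD26- tumour CM, at 4.00 to 9.16 CPM, with Cdh5 at up to 64 counts. Markers of mammary epithelium were present in spite of the sort. The summed level of 10 of them was 5093 to 5732 CPM in the CD26- control libraries and 3323 to 5415 CPM in CD26- tumour CM, against 805.5 to 1486 CPM in the CD26+ control libraries and 751.4 to 1824 CPM in CD26+ tumour CM. In bulk RNA such as this, fewer cells of a type and less RNA per cell cannot be told apart. Dpp4, the gene for CD26, was at or below 0.171 CPM in the control libraries of both cell types, so its RNA did not separate the sorted cells there. It reached 0.0776 to 0.881 CPM in CD26- and 0.715 to 7.80 CPM in CD26+ tumour CM, where it separated them only in part. The CD26+ library given 13-MCB-138 CM (replicate 18) stood apart from 3 others of its group, with a chi-square per degree of freedom of 40.6 to 59.5 against replicates 13, 14 and 17, where the 5 others had 4.64 to 28.0 among themselves. Against replicates 15 and 16 it had 22.2 and 23.5, inside that range. The members called in CD26+ NFs were still called without it, and Nfkbia and Tnfaip3 are given with and without it.

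Several members carry NF-κB recognition letters next to their own start. RefSeq promoters (250 bases before to 50 after a transcript start, build GRCm38.p6) were at hand for 7 members, all but Nfkb1, Relb and Nfkbiz, and 5 of the 7 held a match to the κB consensus on either strand (Nfkb2, Nfkbia, Nfkbie, Rel and Tnfaip3). Rela and Nfkbib held none. Of all 27025 genes in the table, 5.14% held a match in any promoter, as did 4.51% of the 32851 promoters. The stretches below are shown because the members they belong to are set side by side later. Each is written 5′ to 3′ on the strand of its gene, with the matching letters in capitals, and neighbouring matches may overlap.
Nfkbia, 250 bases before the start, chr12:55492648-55492897, minus strand: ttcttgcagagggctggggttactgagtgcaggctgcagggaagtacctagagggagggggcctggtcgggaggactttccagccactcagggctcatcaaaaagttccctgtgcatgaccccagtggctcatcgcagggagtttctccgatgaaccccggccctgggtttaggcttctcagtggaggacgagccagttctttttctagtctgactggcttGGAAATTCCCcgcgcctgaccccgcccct
Nfkbie, 250 bases before the start, chr17:45555450-45555699, plus strand: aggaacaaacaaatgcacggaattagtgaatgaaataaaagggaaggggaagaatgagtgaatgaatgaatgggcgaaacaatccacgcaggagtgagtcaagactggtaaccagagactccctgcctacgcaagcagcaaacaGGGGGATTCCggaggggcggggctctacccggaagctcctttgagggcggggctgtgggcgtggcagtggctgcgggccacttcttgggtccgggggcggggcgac
Nfkb2, first of the matches at its most upstream start, chr19:46304689-46304718, plus strand: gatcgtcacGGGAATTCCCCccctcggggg
Tnfaip3, the match nearer the start, chr10:19015403-19015432, minus strand: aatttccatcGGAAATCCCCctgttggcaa
Rel, chr11:23771041-23771070, minus strand: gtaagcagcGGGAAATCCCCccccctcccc
A match is a description of letters, and these data hold no measurement of binding. The offset of the match was -29 bases from the start in Nfkbia, -106 in Nfkbie, -39 in Nfkb2, -12 in Tnfaip3 and -92 in Rel. The start is that of the RefSeq entry and can differ from the gene boundary given below.

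Levels of different genes were compared per length, as CPM per kilobase of exon (GENCODE vM21), with the exons of all transcripts of a gene merged. The merged length was 12061 bases for Nfkb1 and 3072 for Rela, so the order of genes below depends on this choice of length. In plain CPM Nfkb1 was above Rela in CD26- control medium, with means of 134.6 and 88.28 CPM. In CD26- control medium Rela, the main activating subunit, was highest at 26.7 to 29.8 CPM per kb, and overlapped with Nfkbia at 22.2 to 27.5. Nfkb2 followed at 17.6 to 21.2, Tnfaip3 at 13.7 to 14.5 and Nfkb1 at 10.9 to 11.4, each apart from its neighbours in all libraries. Nfkbib, Nfkbie, Relb and Nfkbiz lay between 4.90 and 10.2 CPM per kb, each overlapping with the next in order, and Rel was lowest at 2.52 to 2.73. In CD26+ control medium Rela was again highest, at 21.5 to 22.8 CPM per kb, and Rel had the lowest mean, at 1.97 to 2.30. Tnfaip3 was next to last there, at 1.83 to 3.60, and overlapped with Rel. In CD26+ tumour CM Nfkbia had the highest mean, at 43.6 CPM per kb with libraries from 20.5 to 58.6. Its range overlapped with those of Rela, Nfkb2 and Nfkb1 through the 13-MCB-138 library alone, the other 5 libraries being above all of theirs.

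**Figure D1:**
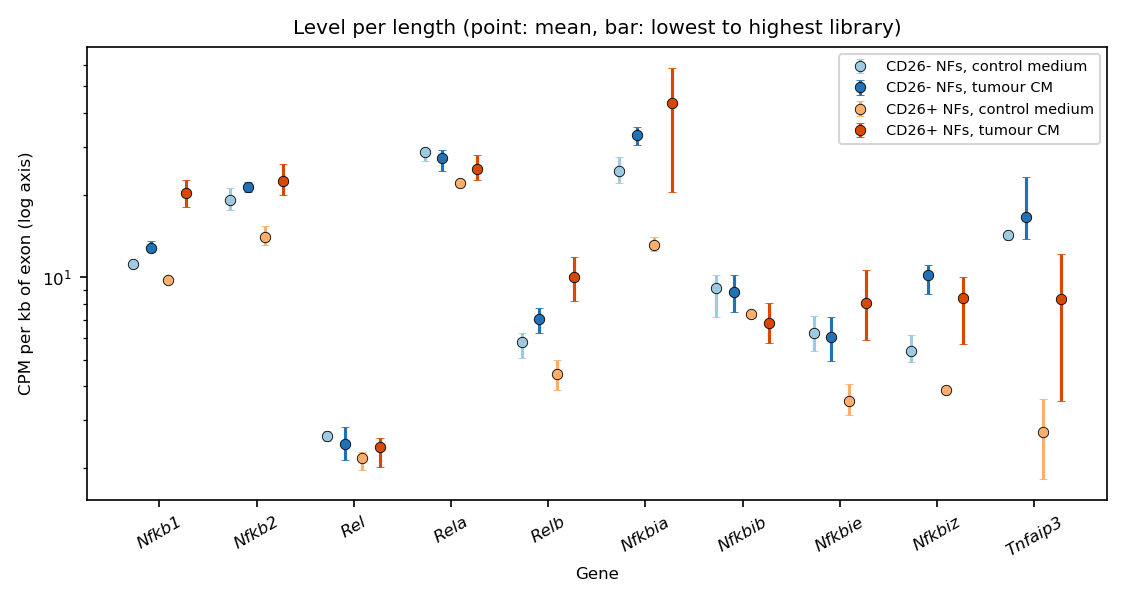
CPM per kilobase of exon (log axis) of each gene in the 4 groups, with the exons of all transcripts of a gene merged for its length. Points are means and bars run from the lowest to the highest library (3 in control medium, 6 in tumour CM). Rela leads in both control groups, Nfkbia has the highest mean in tumour CM, and Rel stays at or under 2.84 in every library.

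The first question was what tumour CM did to the family in each cell type. In CD26+ NFs, 6 of the 9 members tested were higher in tumour CM and none was lower: Nfkb2, Relb, Nfkbia, Nfkbie, Nfkbiz and Tnfaip3, with fitted folds between 1.61 and 3.34. In CD26- NFs only Nfkbiz was called, 1.90-fold higher. Nfkb1 rose 2.07-fold in CD26+ NFs and was 1.15-fold higher in CD26- NFs, values that belong to its selection. Over all 14273 genes tested, 28.6% were called in CD26+ NFs (15.2% higher, 13.4% lower) and 15.2% in CD26- NFs (7.88% higher, 7.28% lower) at an FDR under 0.05. FDR stands throughout for the Benjamini-Hochberg adjusted p-value of edgeR's quasi-likelihood test over all genes tested. Over the 9 members the median log2 change was 1.12 in CD26+ NFs and 0.16 in CD26- NFs, against 0.00 and 0.01 over all genes.

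**Figure D2:**
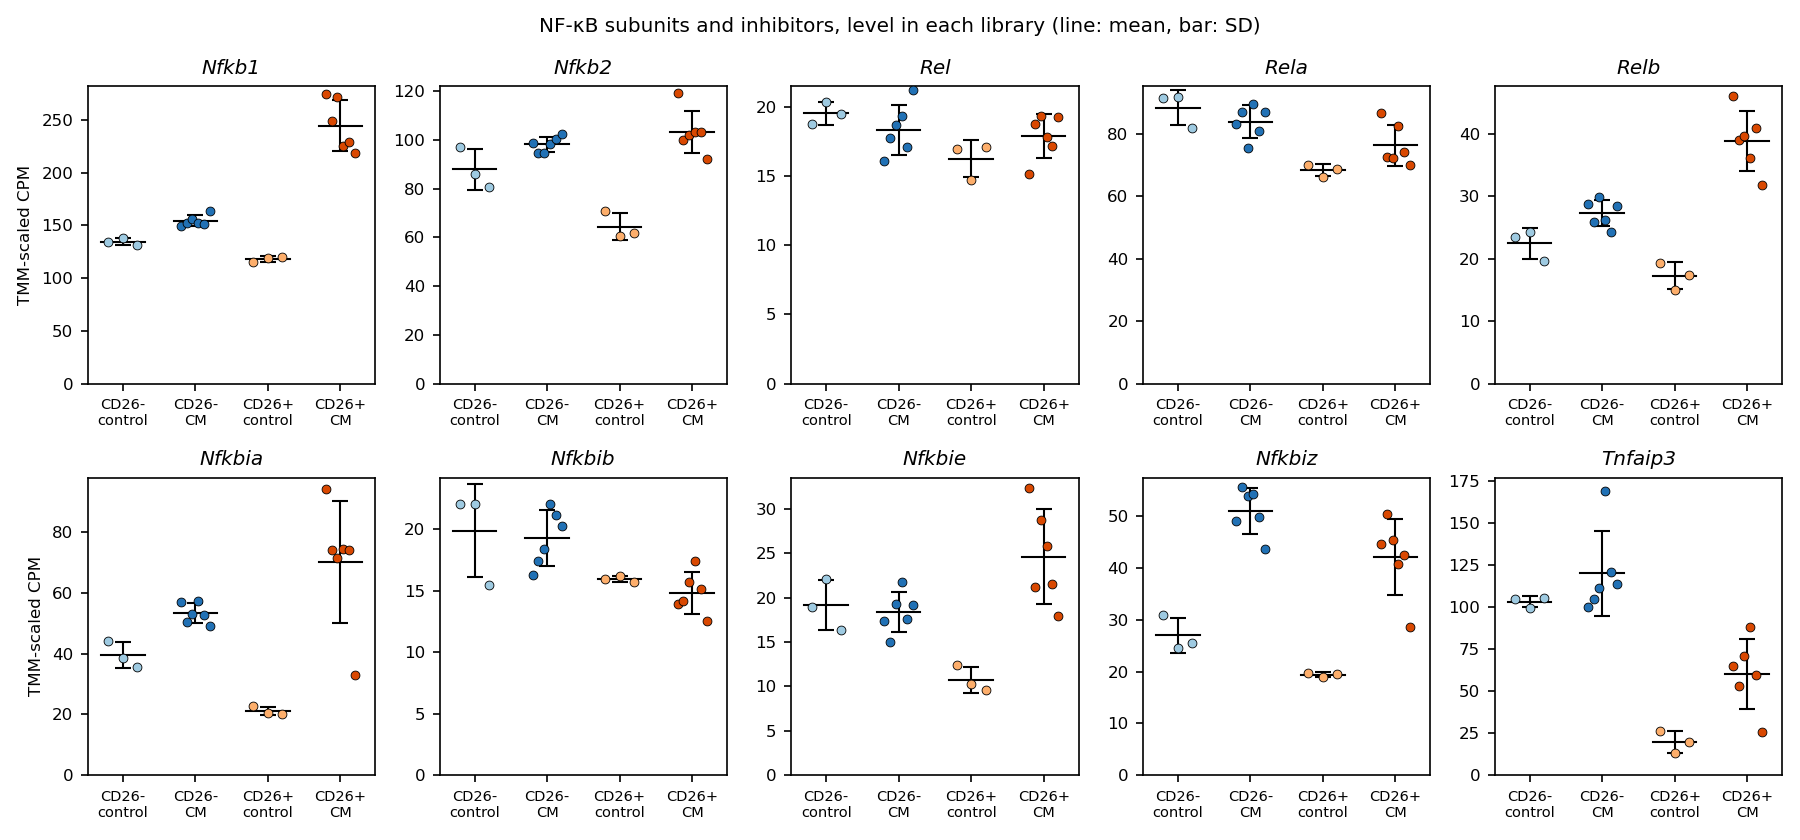
TMM-scaled CPM of each gene in each of the 18 libraries, by group, with the mean as a line and the SD as a bar. Points are in replicate order, so the last point of each tumour CM group is the 13-MCB-138 library. The CD26+ tumour CM libraries lie above the CD26+ control libraries for Nfkb1, Nfkb2, Relb, Nfkbia, Nfkbie and Nfkbiz, and for Tnfaip3 with 1 library overlapping.

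Among the subunits, Nfkb1 (ENSMUSG00000028163, GRCm38 chr3:135584655-135691547, minus strand), which encodes p105 and p50, measured 115.2, 119 and 120.2 CPM in the CD26+ control libraries and 219 to 274 CPM (median 239) in tumour CM. In CD26- NFs it measured 132, 134 and 138 CPM in control medium and 149.6 to 164 CPM (median 152) in tumour CM. No library overlapped between media in either cell type, and the highest level of any group was in CD26+ tumour CM. The fitted log2 change was 1.05 ± 0.07 (SE) in CD26+ NFs and 0.20 ± 0.07 in CD26- NFs.

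Nfkb2 (ENSMUSG00000025225, GRCm38 chr19:46304320-46312385, plus strand), the gene for p100 and p52 of the non-canonical arm, measured 60.5, 61.9 and 70.7 CPM in CD26+ control medium and 92.1 to 119 CPM (median 102) in tumour CM. Its log2 change was 0.68 ± 0.07 (FDR 4.74e-06), with no overlap between media. In CD26- NFs it went from 80.7, 86.0 and 97.2 CPM to 94.5 to 103 CPM (median 98.4), which overlapped, and the log2 change of 0.16 ± 0.07 was not called (FDR 0.146).

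Relb (ENSMUSG00000002983, GRCm38 chr7:19606217-19629438, minus strand), whose protein pairs with p52, measured 15.0, 17.4 and 19.3 CPM in CD26+ control medium and 31.8 to 46.2 CPM (median 39.4) in tumour CM. The log2 change was 1.17 ± 0.11 (FDR 1.25e-06), the smallest FDR of any member tested for this contrast. In CD26- NFs the control libraries had 19.7, 23.5 and 24.3 CPM and tumour CM 24.4 to 29.9 CPM (median 27.4). These did not overlap by a narrow margin, and the log2 change of 0.28 ± 0.11 missed the threshold (FDR 0.0862).

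Rela (ENSMUSG00000024927, GRCm38 chr19:5637483-5648130, plus strand) and Rel (ENSMUSG00000020275, GRCm38 chr11:23736847-23770970, minus strand) encode the activating subunits RelA and c-Rel and were called in neither cell type. Rela measured 66.1, 68.7 and 70.0 CPM in CD26+ control medium and 70.0 to 86.4 CPM (median 73.4) in tumour CM, a log2 change of 0.16 ± 0.07 (FDR 0.0926). In CD26- NFs Rela had 81.9, 91.4 and 91.6 CPM in control medium and 75.2 to 89.5 CPM in tumour CM (log2 change -0.07 ± 0.07, FDR 0.500). Rel stayed between 14.7 and 21.2 CPM over all 18 libraries, with log2 changes of 0.14 ± 0.09 (FDR 0.28) in CD26+ NFs and -0.09 ± 0.09 (FDR 0.537) in CD26- NFs. Media overlapped for both genes in both cell types, although Rel carries a κB match and Rela does not.

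Among the inhibitors, Nfkbia (ENSMUSG00000021025, GRCm38 chr12:55489410-55492647, minus strand), which encodes IκBα, the fast-cycling IκB, had the largest change in CD26+ NFs. It measured 20.1, 20.5 and 22.7 CPM in control medium and 33.0 to 94.3 CPM (median 74.2) in tumour CM. The lowest of these 6 was the 13-MCB-138 library, and the other 5 lay at 71.4 CPM or above. The log2 change was 1.74 ± 0.21 (FDR 1.50e-05) with that library and 1.88 ± 0.10 without it.

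In CD26- NFs Nfkbia measured 35.7, 38.6 and 44.2 CPM in control medium and 49.3 to 57.3 CPM (median 53.0) in tumour CM. The media did not overlap, yet the log2 change of 0.44 ± 0.20 was not called (FDR 0.143). It was called with the tumour line as a block pairing the 2 cell types (FDR 0.0434, which made 2 called members rather than 1), without the CD26+ 13-MCB-138 library (FDR 0.00341), and when only the CD26- libraries were fitted (FDR 0.00456).

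Nfkbie (ENSMUSG00000023947, GRCm38 chr17:45555703-45563169, plus strand), the gene for IκBε, measured 9.57, 10.2 and 12.4 CPM in CD26+ control medium and 18.0 to 32.4 CPM (median 23.6) in tumour CM. Its log2 change was 1.20 ± 0.17 (FDR 6.75e-05) with no overlap. In CD26- NFs it had 16.4, 19.0 and 22.0 CPM in control medium and 15.0 to 21.8 CPM (median 18.4) in tumour CM, a log2 change of -0.06 ± 0.16 (FDR 0.85) whose sign turned when 1 control library was left out. Nfkbib (ENSMUSG00000030595, GRCm38 chr7:28758251-28767512, minus strand), which encodes IκBβ, measured 15.7, 15.9 and 16.2 CPM in CD26+ control medium and 12.5 to 17.4 CPM in tumour CM. It was the only inhibitor not called in CD26+ NFs, with a log2 change of -0.11 ± 0.12 (FDR 0.559), and it was at -0.04 ± 0.12 (FDR 0.864) in CD26- NFs.

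Nfkbiz (ENSMUSG00000035356, GRCm38 chr16:55811375-55838899, minus strand) encodes IκBζ, a nuclear IκB that acts with p50 and is needed for a subset of secondary response genes. It measured 24.6, 25.5 and 30.9 CPM in CD26- control medium and 43.8 to 55.7 CPM (median 51.8) in tumour CM. In CD26+ NFs it measured 19.0, 19.5 and 19.8 CPM in control medium and 28.6 to 50.4 CPM (median 43.6) in tumour CM. It was the called member whose changes in the 2 cell types lay closest together, with log2 changes of 0.93 ± 0.13 (FDR 0.000348) in CD26- NFs and 1.12 ± 0.13 (FDR 1.27e-05) in CD26+ NFs, and no overlap in either.

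Tnfaip3 (ENSMUSG00000019850, GRCm38 chr10:19000910-19015657, minus strand) encodes A20, a ubiquitin-editing enzyme that shuts off signalling upstream of the IκB kinases. It measured 13.2, 19.7 and 26.0 CPM in CD26+ control medium and 25.5 to 88.0 CPM (median 62.2) in tumour CM. The lowest library was again 13-MCB-138, which lay below the highest control library, and the other 5 were at 52.9 CPM or above. The log2 change was 1.62 ± 0.29 (FDR 0.000547), and 1.77 ± 0.21 without that library. In CD26- NFs it measured 99.1, 104.8 and 105.1 CPM in control medium and 99.9 to 169 CPM (median 112) in tumour CM, which overlapped (log2 change 0.22 ± 0.26, FDR 0.613).

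**Figure D3:**
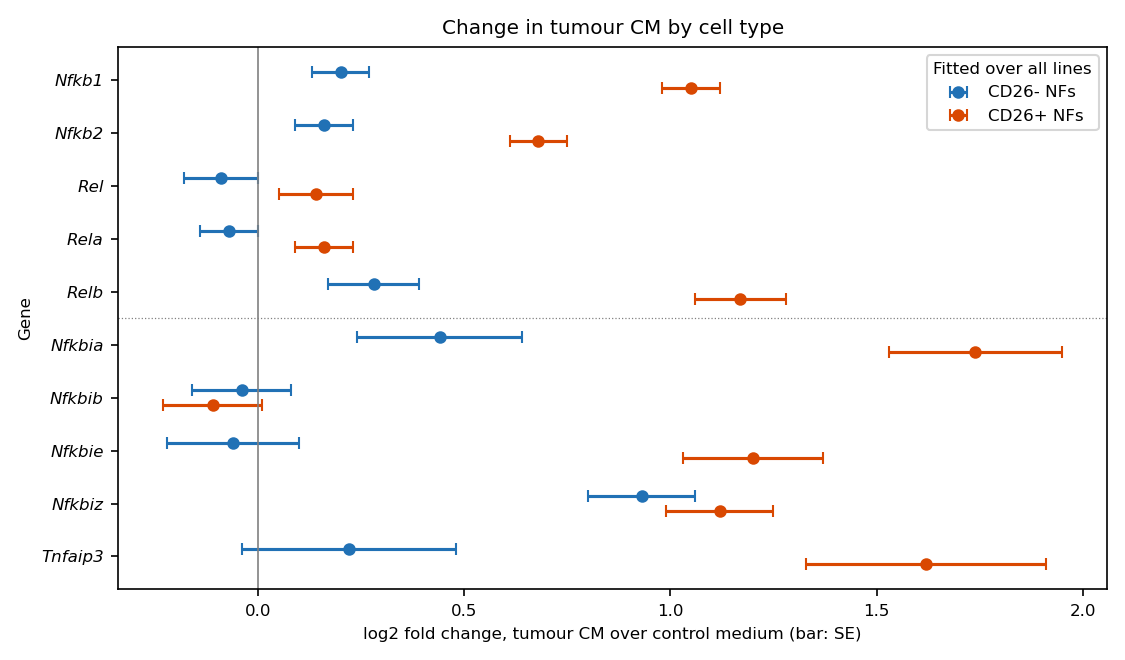
Fitted log2 fold change of tumour CM over control medium for each gene in CD26- NFs (blue) and CD26+ NFs (orange). Bars are standard errors and the dotted line parts subunits from inhibitors. The CD26+ value lies right of the CD26- value for 9 of the 10 genes, all but Nfkbib.

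With a limit on size as well (FDR under 0.05 and a log2 change over 2 in either direction), none of the 9 members was called in either cell type, where all genes gave 2.01% in CD26+ NFs and 0.904% in CD26- NFs. The summed epithelial markers overlapped between media in CD26+ NFs and tended lower in tumour CM in CD26- NFs, as given above. With the mean of those markers as a covariate, added after the data were seen, Rela joined the 6 called members in CD26+ NFs (log2 change 0.19 ± 0.06, FDR 0.0174) and Nfkbiz remained the called member in CD26- NFs.

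The second question was whether the 6 tumour lines acted alike. Each CM library was divided by the mean of the 3 control libraries of its cell type, so the 6 ratios of a cell type share their controls. In CD26+ NFs the log2 ratio of Nfkb1 was 1.22 for 13-MCB-17, 1.20 for 18-MCB-12, 1.08 for 10-SJK-221, 0.96 for 13-MCB-90, 0.93 for 13-MCB-44 and 0.89 for 13-MCB-138. In CD26- NFs its ratios ran from 0.15 to 0.28 and were highest for 13-MCB-138, so the line that was lowest in one cell type was highest in the other. Relb ran from 0.89 to 1.43 in CD26+ NFs and from 0.12 to 0.42 in CD26- NFs.

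In CD26+ NFs 13-MCB-138 had the lowest log2 ratio of the 6 lines for every member but Rel, subunits and inhibitors alike. Among subunits it had 0.52 for Nfkb2 against 0.64 to 0.89 for the other lines, 0.89 for Relb against 1.07 to 1.43, and 0.04 for Rela against 0.08 to 0.34. Its gap to the other lines was widest for Nfkbia and Tnfaip3. Nfkbia had a log2 ratio of 0.65 for 13-MCB-138 and 1.76 to 2.16 for the other 5 lines. Tnfaip3 had 0.43 for 13-MCB-138 and 1.49 to 2.22 for the others, Nfkbie 0.75 against 0.99 to 1.60, Nfkbiz 0.56 against 1.07 to 1.38, and Nfkbib -0.35 against -0.19 to 0.13. In CD26- NFs the same line was above the others for Nfkb1, Nfkb2 (0.23 against 0.11 to 0.19) and Rel (0.12 against -0.28 to -0.01). It lay inside the range of the others for Tnfaip3 and Nfkbie, and below it for Nfkbia (0.32 against 0.36 to 0.54) and Nfkbiz (0.71 against 0.87 to 1.05).

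The F test over the 5 line terms, on the 12 tumour CM libraries with cell type in the model, called 0 of the 9 members other than Nfkb1, where edgeR called 6.28% of all genes. The smallest adjusted p was that of Nfkbiz, 0.103, which was the 1 member under 0.05 unadjusted. DESeq2's likelihood ratio test also called 0, with 2 members under 0.05 unadjusted. Leaving out the CD26- 13-MCB-138 library (replicate 9) brought 3 calls, Nfkbia, Nfkbiz and Tnfaip3, and leaving out the CD26+ one (replicate 18) brought 1, Tnfaip3. In either case the other library of that line alone sets its term and adds nothing to the spread, so these calls are no independent sign of a line effect. Without both libraries of 13-MCB-138, so that every line kept was in both cell types, the F test still called Tnfaip3 (FDR 0.00907), beside 1451 of all genes. The highest Tnfaip3 ratios were those of 13-MCB-44, at 0.71 in CD26- and 2.22 in CD26+ NFs. With all libraries but no filter on low counts Nfkbia, Nfkbiz and Tnfaip3 were called, so the count of 0 rests on single libraries and on the filter. The background moved too, from 360 to 2087 genes on leaving out 1 library in place of 897. This test looked at lines across both cell types and did not look at a line that differs in only one of them, since each line has 1 library per cell type.

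**Figure D4:**
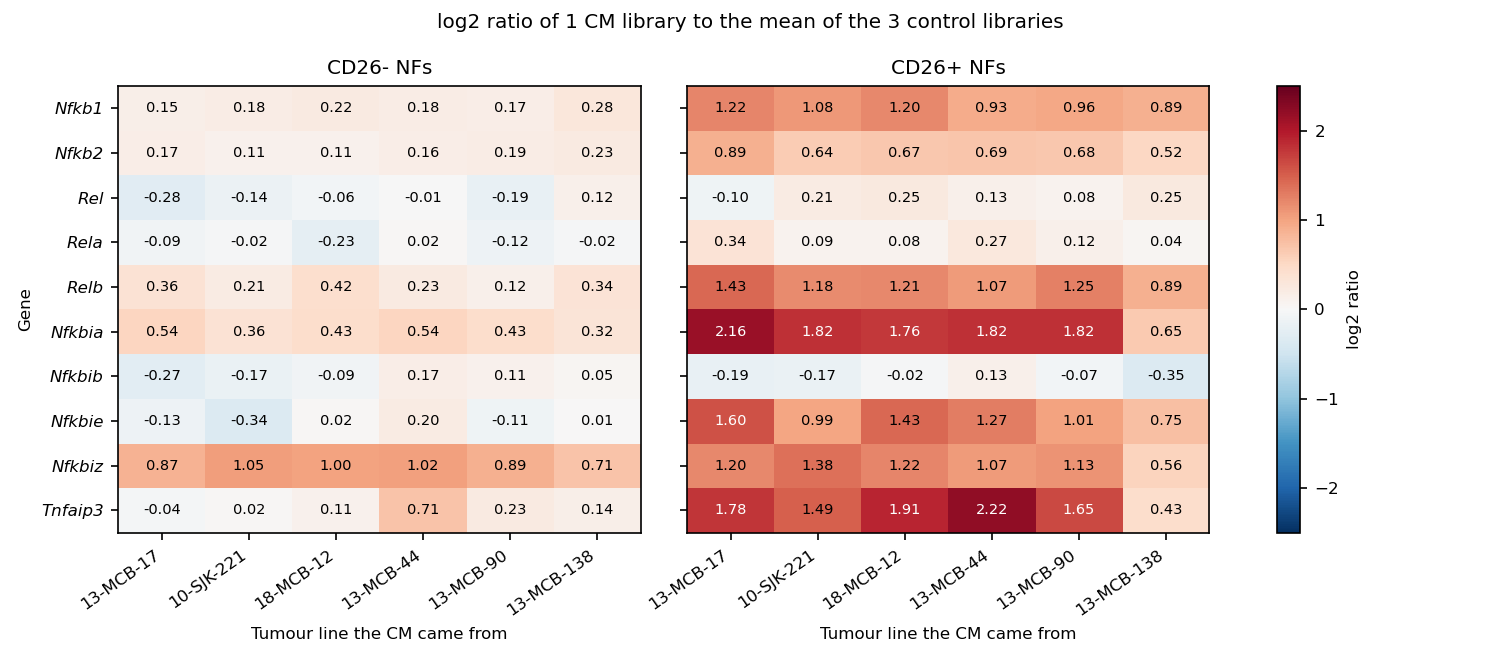
log2 ratio of each tumour CM library to the mean of the 3 control libraries of its cell type, by gene (rows) and by the line the CM came from (columns), for CD26- NFs (left) and CD26+ NFs (right). The CD26+ panel is the redder for most genes, Nfkbiz is alike in both, and 13-MCB-138 has the lowest CD26+ ratio for every gene but Rel.

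The difference between the 2 responses is what the family was chosen by, so it is given as a description. The log2 change in CD26+ NFs minus that in CD26- NFs was 0.85 ± 0.09 for Nfkb1, 0.89 ± 0.15 for Relb, 0.52 ± 0.10 for Nfkb2, 0.24 ± 0.10 for Rela and 0.23 ± 0.13 for Rel. For the inhibitors it was 1.41 ± 0.38 for Tnfaip3, 1.30 ± 0.28 for Nfkbia, 1.26 ± 0.23 for Nfkbie, 0.19 ± 0.18 for Nfkbiz and -0.07 ± 0.17 for Nfkbib. Nfkb1 did not have the largest difference, but the smallest error relative to its size among the 10. Over all genes 7.53% passed an FDR under 0.05 in this contrast, and 0.392% with a log2 difference over 2 as well, a size that no member reached. No share of members is set beside these, since the contrast chose the family. Line by line, the CD26+ ratio was above the CD26- ratio in 6 of 6 lines for Nfkb1, Nfkb2, Rel, Rela, Relb, Nfkbia, Nfkbie and Tnfaip3, in 5 of 6 for Nfkbiz and in 2 of 6 for Nfkbib, counted on ratios rounded to 2 decimals, at which 1 further line was equal. The gap for Nfkbia was 0.33 with 13-MCB-138 and 1.28 to 1.62 with the other lines. Without the CD26+ 13-MCB-138 library the fitted difference for Nfkbia was 1.44 ± 0.13.

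The third question was how the cell types differed at the same medium. In control medium, 8 of the 9 members tested were lower in CD26+ NFs than in CD26- NFs and none was higher. Over all genes 50.3% were called, with CD26+ NFs the higher for 25.0% and the lower for 25.4%. The median log2 difference of the 9 members was -0.45 against 0.01 for all genes. The largest was that of Tnfaip3, whose mean was 103 ± 3.41 CPM (SD, n = 3) in CD26- and 19.6 ± 6.40 CPM (SD, n = 3) in CD26+ NFs. Its log2 difference was -2.40 ± 0.32 (FDR 8.85e-06, 5.27-fold lower), and it was the 1 member past the log2 limit of 2, where all genes gave 5.97%.

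Among the other inhibitors, Nfkbia was lower in CD26+ control medium by a log2 difference of -0.90 ± 0.23 (FDR 0.00363), Nfkbie of -0.83 ± 0.19 (FDR 0.00152) and Nfkbiz of -0.47 ± 0.15 (FDR 0.0150). Nfkbib was not called, at -0.31 ± 0.14 (FDR 0.0761). Among the subunits the differences were -0.45 ± 0.08 for Nfkb2 (FDR 0.000223), -0.38 ± 0.13 for Relb (FDR 0.0181), -0.37 ± 0.08 for Rela (FDR 0.000860) and -0.26 ± 0.10 for Rel (FDR 0.0436), with -0.19 ± 0.08 for Nfkb1 as a description. The called members' libraries did not overlap between the cell types, which is little more than the call itself with 3 libraries a group. For Rel the margin was narrow, with 18.8, 19.5 and 20.4 CPM in the CD26- and 14.7, 17.0 and 17.1 CPM in the CD26+ control libraries. Without CD26- replicate 1 or without CD26+ replicate 11 the count fell to 5 of 9, with Rel, Relb and Nfkbiz no longer called. Rel, the closest to the threshold, passed it in 15 of 27 settings, and was lost on leaving out any 1 of the 6 control libraries. This comparison and the response of CD26+ NFs share the 3 CD26+ control libraries, so a low level there enters both.

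The epithelial markers moved with this comparison, and not evenly over the members. The summed markers of the CD26- and CD26+ control libraries, given above, did not come near each other, and none of the 10 markers was at 0 in a group. The fibroblast markers moved the other way, and the part of either in these differences was not tested beyond the covariate below. Within the CD26+ control libraries Tnfaip3 had the same order as the summed markers, at 13.2, 19.7 and 26.0 CPM beside 805.5, 1174 and 1486 CPM. Within the CD26- control libraries it did not, at 104.8, 99.1 and 105.1 CPM beside 5732, 5525 and 5093 CPM. The highest Tnfaip3 library of CD26- tumour CM, given 13-MCB-44 CM (replicate 7, 169 CPM), had the highest marker sum of its group (5415 CPM), and the highest of CD26+ tumour CM, given CM of the same line (88.0 CPM), had the highest there (1824 CPM). The CD26+ library given 18-MCB-12 CM went the other way, with the lowest marker sum of its group (751.4 CPM) and 70.8 CPM of Tnfaip3. With the marker mean as a covariate, Tnfaip3 in control medium was at -1.08 ± 0.47 (FDR 0.195), Nfkb2 at -0.17 ± 0.15, and Rela at 0.00 ± 0.13. Relb (-0.27 ± 0.25), Nfkbia (-0.42 ± 0.44) and Nfkbie (-0.40 ± 0.36) were also nearer to 0, Nfkbib was at 0.11 ± 0.26, and Nfkbiz (-0.53 ± 0.30) and Rel (-0.32 ± 0.21) were as far from 0 as without it or farther. No member was called, at edgeR FDRs of 0.195 to 0.996. The covariate and the cell type largely coincide in these libraries and the standard errors were wider, so a lost call does not show that the difference was gone. Over all genes the calls fell from 7186 to 843.

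**Figure D5:**
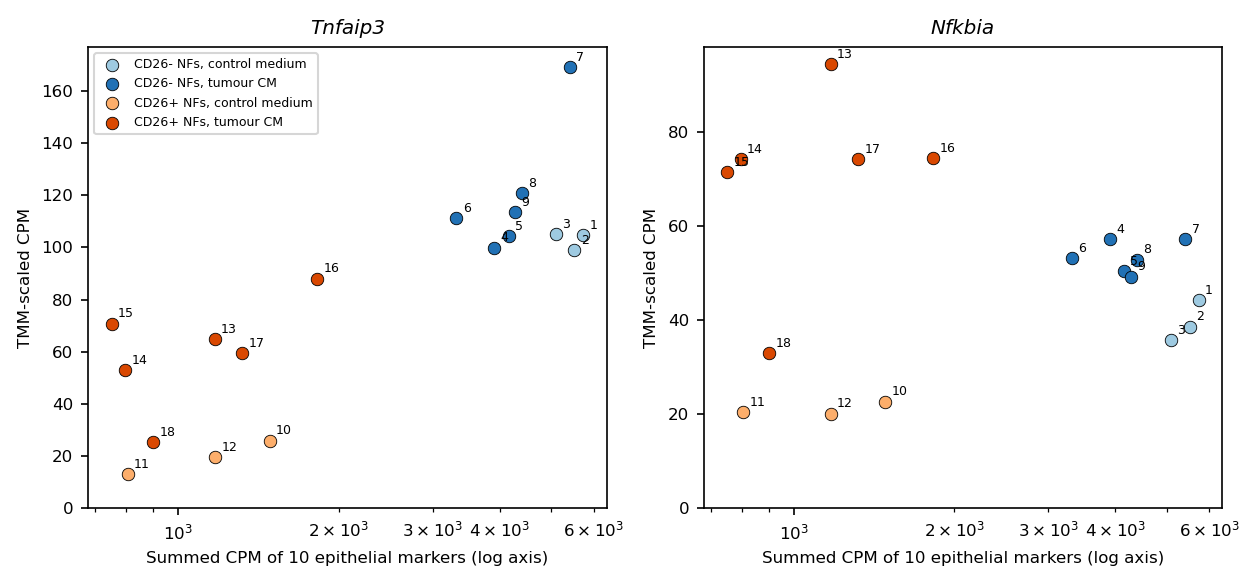
Level of Tnfaip3 (left) and Nfkbia (right) in TMM-scaled CPM against the summed CPM of 10 epithelial markers (log axis), 1 point a library, labelled with its replicate number. The CD26+ libraries are at 751.4 to 1824 CPM of markers and the CD26- libraries at 3323 to 5732, and within CD26+ NFs the 2 media span overlapping marker sums while Nfkbia separates them and Tnfaip3 does so but for replicate 18.

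In tumour CM the order of the cell types was mixed. Of the 9 members tested, Relb, Nfkbia and Nfkbie were higher in CD26+ NFs and Rela, Nfkbib, Nfkbiz and Tnfaip3 lower, with 58.6% of all genes called (29.3% higher, 29.3% lower). Relb had a log2 difference of 0.51 ± 0.08 (FDR 5.23e-05), Nfkbie of 0.42 ± 0.13 (FDR 0.00908) and Nfkbia of 0.40 ± 0.16 (FDR 0.0351). Nfkb1 was at 0.67 ± 0.05, a description, with every CD26+ library above every CD26- library. Tnfaip3 remained lower at -0.99 ± 0.21 (FDR 0.000617), Nfkbib at -0.38 ± 0.10 (FDR 0.00357), Nfkbiz at -0.28 ± 0.10 (FDR 0.0236) and Rela at -0.13 ± 0.06 (FDR 0.0478). Nfkb2 (0.07 ± 0.06, FDR 0.287) and Rel (-0.04 ± 0.07, FDR 0.703) were not called. Past the log2 limit of 2 there was no member, and 4.16% of all genes. Rela and Nfkbia, the closest to the threshold, passed it in 7 and 16 of the 27 settings in which each was computed, and without CD26- replicate 5 the count was 4 of 9. With the epithelial marker mean as a covariate no member was called, again with wider standard errors. Nfkbia (0.80 ± 0.34), Nfkbie (0.79 ± 0.29), Relb (0.61 ± 0.20) and Nfkbiz (-0.33 ± 0.24) were then farther from 0, Nfkbib (-0.03 ± 0.21) nearer to it, and Tnfaip3 (0.14 ± 0.38) and Rela (0.17 ± 0.10) of the other sign. Nfkb1 was at 0.55 ± 0.12.

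The other genes of the pathway were counted from lists drawn up with earlier results of these libraries known. Of 71 receptors, ligands, kinases, adaptors and regulators tested, tumour CM raised 28 and lowered 4 in CD26+ NFs, and raised 10 and lowered 6 in CD26- NFs. Their median log2 change was 0.16 in CD26+ NFs and 0.01 in CD26- NFs. Of 29 textbook NF-κB target genes tested, 21 were higher and 1 lower in CD26+ NFs (median 1.56) and 15 higher and 2 lower in CD26- NFs (median 0.91), beside 15.2% and 7.88% of all genes higher. Without CD26- control replicate 3 the CD26- count of targets was 11 in place of 17.

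Among receptors and ligands in CD26+ NFs, 7 of 13 receptors were higher in tumour CM and 1 was lower, beside 15.2% of all genes higher and 13.4% lower. Il1rap, the accessory chain of the interleukin 1 receptor, changed by 1.13 ± 0.12 on the log2 scale (FDR 3.31e-06), Tlr2, a receptor for bacterial lipoproteins, by 0.95 ± 0.18 (FDR 0.000876), and Tnfrsf1a, the main TNF receptor, by -0.33 ± 0.06 (FDR 0.000570). In CD26- NFs 2 of 13 receptors were called, a share like the 15.2% of all genes, Il1rap at 0.82 ± 0.12 (FDR 0.000362) and Il1r1 at 0.35 ± 0.09 (FDR 0.0209). Of the 5 ligands that passed the filter, Il1a, the interleukin 1α gene, was higher in both cell types, at 3.70 ± 0.60 (FDR 0.000210) in CD26+ and 2.23 ± 0.36 (FDR 0.000722) in CD26- NFs. Tnfsf11, which encodes RANKL, went the other way in CD26+ NFs, at -1.78 ± 0.46 (FDR 0.00753). Lta, Ltb, Il1b and Cd40lg did not pass the filter.

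Among the kinases 7 of 12 were higher and 1 lower in CD26+ NFs, beside 15.2% and 13.4% of all genes, and 2 were higher and 1 lower in CD26- NFs, beside 7.88% and 7.28%. Map3k8, which encodes a kinase held by p105, changed by 1.50 ± 0.18 (FDR 1.25e-05) in CD26+ and 1.32 ± 0.19 (FDR 0.000353) in CD26- NFs. Ikbke, for an inducible IκB kinase relative, changed by 1.28 ± 0.19 (FDR 9.83e-05) and 0.84 ± 0.19 (FDR 0.00658). Map3k14, for the NF-κB inducing kinase that starts the cutting of p100, fell by 0.68 ± 0.11 (FDR 0.000302) in CD26+ and by 0.45 ± 0.12 (FDR 0.0182) in CD26- NFs, while Nfkb2 and Relb of the same arm rose in CD26+ NFs.

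Of 21 adaptors and ubiquitin ligases, 5 were higher and 0 lower in CD26+ NFs, and 1 was higher and 4 lower in CD26- NFs, beside 28.6% of all genes called in CD26+ NFs and 15.2% in CD26- NFs, so the list is not set apart in CD26+ NFs by its count. Birc3, for a ubiquitin ligase of the TNF receptor complex, changed by 1.36 ± 0.14 in CD26+ NFs (FDR 3.63e-06), and Traf3, which restrains the non-canonical arm, by 0.45 ± 0.06 (FDR 8.05e-05). Those that fell in CD26- NFs were Traf1, Traf6, Malt1 and Birc2, Traf1 by 1.72 ± 0.28 on the log2 scale (FDR 0.000826). The IκB turnover genes moved little, Fbxw11, for a receptor of marked IκB, by 0.23 ± 0.05 in CD26+ NFs (FDR 0.00316).

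Of 14 further negative regulators, 7 were higher and 1 lower in CD26+ NFs and 3 higher and 0 lower in CD26- NFs, where 28.6% and 15.2% of all genes were called. Irak3, which blunts Toll-like receptor signalling, changed by 2.22 ± 0.17 (FDR 1.48e-07) and 1.49 ± 0.19 (FDR 0.000194), and Zc3h12a, an RNase that degrades cytokine transcripts, by 1.45 ± 0.13 (FDR 6.15e-07) and 1.31 ± 0.13 (FDR 3.16e-05), in CD26+ and CD26- NFs respectively. Tnip1, which encodes a partner of A20, changed by 0.77 ± 0.12 in CD26+ NFs (FDR 0.000219). The 2 other IκB family genes, Bcl3 and Nfkbid, were called in neither cell type.

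Among the target genes, Ccl2, a monocyte chemokine, changed by 3.26 ± 0.23 (FDR 8.70e-08) in CD26+ and 1.43 ± 0.20 (FDR 0.000362) in CD26- NFs, and Cxcl1, a neutrophil chemokine, by 3.68 ± 0.32 (FDR 6.15e-07) and 2.25 ± 0.29 (FDR 0.000194). Sod2, the mitochondrial superoxide dismutase, changed by 2.40 ± 0.17 in CD26+ NFs (FDR 8.70e-08). In the difference between the responses, 14 pathway genes were called with the larger and 1 with the smaller value in CD26+ NFs, and 9 and 2 of the targets. Over all genes 7.53% were called. The family was chosen by this contrast and the lists were drawn up with results known, so nothing is read from these counts against that share. With the tumour line as a block the totals were 28 and 17 in place of 15 and 11, and leaving out 1 library gave totals from 5 to 23 and from 5 to 17, with 5 pathway genes without CD26+ control replicate 11.

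Between cell types in control medium 12 pathway genes were higher and 29 lower in CD26+ NFs, and 3 and 13 of the targets, with medians of -0.10 and -0.82. Over all genes 25.0% were higher and 25.4% lower, so both lists held more lower and fewer higher genes than the background, while their totals of 41 of 71 and 16 of 29 lay near its 50.3%. The epithelial markers differ between these same libraries, and their part in the list counts was not tested. Il1r1, the interleukin 1 receptor, was higher in CD26+ NFs (1.82 ± 0.11, FDR 3.14e-09), as were Tnfrsf1a (1.05 ± 0.07, FDR 6.42e-09) and the ligand genes Tnfsf11 (3.11 ± 0.62, FDR 0.000408) and Tnfsf12 (0.97 ± 0.16, FDR 7.81e-05). Il1a (-3.85 ± 0.64, FDR 7.22e-05), Tnf (-2.53 ± 0.68, FDR 0.00496) and Tlr3 (-1.87 ± 0.16, FDR 1.14e-07) were lower. In tumour CM 25 of the 71 pathway genes were higher and 22 lower, beside 29.3% of all genes in each direction, and Il1r1 (1.47 ± 0.08, FDR 2.00e-10) and Il1a (-2.38 ± 0.28, FDR 9.83e-07) kept their directions.

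The genes whose levels followed Nfkb1 most closely were found over the 18 libraries among 10611 genes (mean over all libraries 5 CPM or more), by Pearson's r of log2 CPM. They were Cpq (r 0.976), Sdc4 (0.967), Sod2 (0.964), Fas (0.956) and Gng12 (0.956). All 5 had their highest group mean in CD26+ tumour CM: Fas, the death receptor gene, averaged 7.38 and 10.1 CPM in CD26- control medium and tumour CM and 5.48 and 23.2 CPM in CD26+ control medium and tumour CM. Among the members Relb ranked 18 of the 10611 (0.939), Nfkbie followed with 0.792, Nfkbia with 0.789, Nfkb2 with 0.725 and Nfkbiz with 0.545, and Tnfaip3 (0.127), Rel (0.056), Rela (-0.033) and Nfkbib (-0.462) did not follow it. These are descriptions over libraries that fall into 4 groups, and a gene with a like group pattern gets a high r from the groups alone.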

How the data were processed

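RNA was measured in 18 libraries of cultured mammary NFs by stranded single-end sequencing. The authors aligned reads to GRCm38 with HISAT2 (2.1.0) and counted them per gene with HTSeq, per the submitters' processing notes, and deposited 1 table of raw counts. The strand setting and annotation release are not given in the sources used here. Groups came from the labels. Genes passing filterByExpr (14273 of 55486) were TMM-scaled and tested with edgeR (4.0.16, R 4.3.3) quasi-likelihood fits over the 4 groups, and lines by an F test on 12 libraries. The log2 CPM values carry a prior count of 2. The 1 row without a gene held 0 counts and was left out. Totals were 9725723 to 14585349 counts, the lowest member count was 129, and no pair of replicates was a copy (chi-square over its degrees of freedom 3.22 or more). The fit was tested on simulated counts. The members and all lists were chosen with earlier results of these data known. Pathway genes were named as the up to 4 smallest-FDR genes per list and contrast with a group mean of at least 1 CPM. Residuals of libraries given the same line correlated at 0.247 to 0.406 in 6 of 6 pairs, the pairing coming from the line names in the labels. Alternatives were DESeq2 (1.42.0), no filter, a line block, the groups alone, a log2 limit of 2 and leaving out each replicate. An epithelial covariate and the omission of line 13-MCB-138 were added after seeing the data. Part of the genotype of the tumour lines and 1 marker gene are not reported here.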

Additional observations from a re-analysis of the deposited data

Results flagged for a closer look

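Of 20 groups of 6 libraries examined (10 genes in 2 tumour CM groups), 2 held a library far from the rest, with a gap to its nearest neighbour above Dixon's 95% critical share of the range. Chance flags about 1 in 20 groups. Nfkbia in the CD26+ library given 13-MCB-138 CM (replicate 18) was at 33.0 CPM, below the other 5. Tnfaip3 in the CD26- library given 13-MCB-44 CM (replicate 7) was at 169 CPM, above the other 5, and that library also had the highest epithelial marker sum of its group. Without it the log2 change of Tnfaip3 in CD26- NFs was 0.09.

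Genes outside the family whose response to tumour CM differed between the cell types, by an interaction term at an FDR under 0.05 among those named by the rule, are given by their log2 change in CD26+ NFs minus that in CD26- NFs. This is the contrast by which the family was chosen, so the values are descriptions, and the members' own are in the report. Among receptors it was 1.29 for Tlr2, 1.16 for Cd40, 0.39 for Tnfrsf12a and -0.35 for Tnfrsf1a. Among adaptors and ubiquitin ligases it was 1.02 for Birc3, 0.75 for Malt1, 0.53 for Traf3 and 0.37 for Traf6. Among kinases and their partners and IκB turnover genes it was 0.31 for Tbk1, 0.23 for Ikbkb, 0.22 for Tab2 and 0.25 for Fbxw11. Among negative regulators it was 0.76 for Tnip1, 0.38 for Cyld and 0.20 for Tax1bp1. Among target genes it was 1.83 for Ccl2, 1.29 for Sod2, 1.17 for Lif and 0.61 for Cflar.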

How the results depend on the processing

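The 6 members called in CD26+ NFs and Nfkbiz in CD26- NFs stayed past the threshold in all 27 settings in which each was computed. Leaving out 1 library at a time gave 6 to 6 called members for the CM effect in CD26+ NFs, 1 to 2 in CD26- NFs, 5 to 8 between cell types in control medium and 4 to 7 in tumour CM. For the difference in CM effect, by which the family was chosen, it gave 4 to 5, and nothing is read from that. It gave 10 to 17 pathway genes and 11 to 19 targets in CD26- NFs, 5 to 23 pathway genes and 5 to 17 targets for the difference (lowest without CD26+ replicate 11, 5 pathway genes, and highest without CD26+ replicate 18, 23), and 0 to 3 members in the line test. With the line as a replicate block, the members called in CD26- NFs were 2 (Nfkbia joined), and pathway genes and targets in the difference 28 and 17, and no other member's call changed. Only the 2 groups of a contrast also gave 2 members in CD26- NFs. With a log2 limit of 2, members numbered 0 in each cell type's CM effect, 1 in control medium, 0 in tumour CM and 0 in the difference. Without a filter on low counts the line test called 3 members and the difference 8 pathway genes. Without both 13-MCB-138 libraries the counts were 2 members in CD26- NFs, 1 in the line test (Tnfaip3), and 25 pathway genes and 17 targets in the difference. With the epithelial covariate 0 members were called between cell types in either medium, with wider standard errors and with some differences nearer to 0 and others farther from it.

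Directions turned only in values that were small or under that covariate, and the cause was not tested. With the covariate the CM effect in CD26- NFs was 0.01 for Rela, 0.06 for Nfkbib and 0.05 for Nfkbie, Nfkbib in control medium was at 0.11, and Rela and Tnfaip3 in tumour CM were at 0.17 and 0.14. Leaving out libraries moved the CM effect in CD26- NFs from -0.20 to 0.05 for Nfkbib and from -0.16 to 0.06 for Nfkbie, and Rel in tumour CM from -0.07 to 0.01.

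Over all genes, calls of the CM effect in CD26- NFs went from 2164 to 3784 with the block, 1018 with the covariate and 825 without control replicate 3. The difference went from 1075 to 2516 with the block, 339 without CD26+ replicate 11 and 2345 without replicate 18. The line test went from 897 genes to 1373 with DESeq2, 2475 without the filter, 360 without CD26+ replicate 17 and 2087 without CD26- replicate 9. Lines have 1 library per cell type, and each control arm 3, which limits all of these.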
